A study of Arabidopsis thaliana with 10 samples.

Results

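Transcript levels of 5 fatty acid desaturase genes, ADS1, ADS2, FAD5, FAB2 and FTM1, are described in dark-grown seedlings of Arabidopsis thaliana. They were chosen by gene identifier from a table of 33559 genes, with earlier results of the same table known, and ADS1 and FTM1 had been seen among the genes lowest in ein3 eil1. Their levels and differences are therefore a description and were not tested. Seedlings were kept 3 days in darkness at 22 °C and collected without roots, with no treatment, and 2 biological replicates were made of each of 5 genotypes, all in the Col-0 background. The mutant hls1 lacks HOOKLESS1, which is needed for the apical hook, the bend that shields the shoot tip of a dark-grown seedling. The mutant pifq lacks the transcription factors PIF1, PIF3, PIF4 and PIF5, which bind phytochromes and hold seedlings in the dark-grown state. The mutant ein3 eil1 lacks EIN3 and EIL1, which drive most transcriptional responses to the hormone ethylene, and pifq ein3 eil1 carries all of these mutations. Col-0 was the wild type. The sources used here do not give the alleles.

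Fatty acid desaturases put double bonds into acyl chains, which sets how fluid membranes are and which signals can be made from their lipids. Soluble stearoyl-ACP desaturases of the plastid stroma act on stearate while it is bound to acyl carrier protein (ACP) and give oleate, the entry point to nearly all unsaturated lipids of the seedling. FAB2, also known as SSI2, is the main enzyme of this kind, and FTM1, also known as SAD6, belongs to the same family. The membrane-bound ADS enzymes act on chains that are already bound to coenzyme A or to lipids: ADS1 and ADS2 are thought to work at the endoplasmic reticulum, and FAD5, also known as ADS3, desaturates palmitate on the galactolipid of plastid membranes.

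All 5 genes are protein-coding, and in the RefSeq annotation of the TAIR10.1 assembly no other gene overlaps any of them. ADS1 (AT1G06080) lies on the plus strand of chromosome 1 at 1843463 to 1846311 and has 2 annotated transcripts with 4 and 5 exons. FTM1 (AT1G43800) lies on the plus strand of chromosome 1 at 16577521 to 16579722, with 3 exons. ADS2 (AT2G31360) lies on the minus strand of chromosome 2 at 13371658 to 13374018, and FAB2 (AT2G43710) on the plus strand of chromosome 2 at 18119873 to 18122889. FAD5 (AT3G15850) lies on the plus strand of chromosome 3 at 5358601 to 5361185, with 5 exons. The 250 bases before the annotated start of ADS1 and FTM1, the 2 members that were lower in ein3 eil1, are shown 5′ to 3′ on the gene's strand, at chr1:1843213-1843462 and chr1:16577271-16577520 of TAIR10.1, with matches to 3 motifs in capitals.
ADS1: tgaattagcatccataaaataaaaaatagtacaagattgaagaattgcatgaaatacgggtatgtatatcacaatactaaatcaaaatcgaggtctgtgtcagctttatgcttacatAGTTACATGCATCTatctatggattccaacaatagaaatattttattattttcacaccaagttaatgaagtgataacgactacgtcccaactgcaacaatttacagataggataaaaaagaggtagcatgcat
FTM1: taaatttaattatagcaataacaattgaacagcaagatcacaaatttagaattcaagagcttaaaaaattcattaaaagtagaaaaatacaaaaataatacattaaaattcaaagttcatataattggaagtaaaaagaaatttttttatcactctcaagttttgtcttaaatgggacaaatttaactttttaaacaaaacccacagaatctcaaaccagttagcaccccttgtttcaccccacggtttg
The motifs searched on both strands were ATGNANCT, a loose form of the sequence EIN3 binds, and the PIF-bound sequences CACGTG (G-box) and CACATG (PBE-box). ADS1 held 2 overlapping matches to ATGNANCT, which begin 133 and 127 bases before the start, and no match to the other motifs. FTM1, ADS2, FAD5 and FAB2 held no match to any of the 3 motifs in this window. The window of FAD5, unlike those of the other members, overlaps a neighbouring gene, PIFI (AT3G15840). Over 27443 windows of the same length before protein-coding genes, 12.5% held ATGNANCT, 6.49% held CACGTG and 11.1% held CACATG. A match is a string of letters and not a measured binding site.

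The values are RPKM, reads scaled by the authors to gene length and to mapped reads, a measure made for setting levels of different genes side by side. The lengths used and the way reads were counted are not given, so ratios and shares between genes are approximate. The deposited table has 1 value per gene and genotype, taken as the authors' mean of 2 samples, so the spread between replicates is not visible, depth per sample is unknown and no test was possible. A gene is termed higher or lower where its log2(RPKM + 1) was at least 1 above or below, which is 2-fold in RPKM + 1, among 18581 genes that reached 1 RPKM in at least 1 genotype; all 5 members did. Over these genes the median differed from Col-0 by -0.29 for ein3 eil1, -0.17 for pifq ein3 eil1, 0.04 for hls1 and -0.05 for pifq on the log2 scale, so differences are also given after median-of-ratios scaling where it matters. EIN3 and EIL1 were lower in both of their mutants, with log2 differences from -2.57 to -1.94, and PIF3 was lower in pifq (-2.45) and in pifq ein3 eil1 (-3.43). PIF5 was lower in pifq by a narrow margin (-1.04, which scaling moved to -0.98 and short of the threshold) and differed by -0.69 in pifq ein3 eil1. PIF1 and PIF4 were not lower in pifq (log2 differences of -0.06 and 0.85), and HLS1 in hls1 differed by -0.74, under the threshold, so the hls1 values carry no clear mark of their own mutation. PIF3 and HLS1 were also low in ein3 eil1, where they are not mutated. PIF3 stood at 12.7 RPKM there, against 35.1 in Col-0. HLS1 stood at 2.84 RPKM there and 3.04 in pifq ein3 eil1, against 6.28 in hls1 and 11.2 in Col-0. In ein3 eil1, 4 of the 7 mutated genes were lower and none higher, or 1 higher after scaling. In hls1, 2 of the 7 were higher and none lower, or 1 higher after scaling. These 2 were PIF5, at 16.0 RPKM against 4.34 in Col-0, and PIF4, at 9.81 against 4.36. The description text of the deposited table names an acyl-lipid desaturase on the lines of ADS1 and ADS2, is empty for FTM1 and names unrelated proteins on the lines of FAD5 and FAB2, so values were tied to genes by identifier alone. The seedlings were harvested without roots, yet all 11 root markers were above 0 in every genotype, with a summed level of 280 RPKM in hls1, 287 in ein3 eil1, 86.9 in pifq ein3 eil1 and 62.7 in pifq, against 249 in Col-0. The root markers did not all move together. Of 10 that reached 1 RPKM, pifq had 8 lower and none higher against Col-0, and pifq ein3 eil1 had 5 lower and 2 higher. In hls1, 1 was higher and 1 lower, and in ein3 eil1, 3 were higher and none lower. Shares of all genes are given with the members' counts below. The 6 seed markers summed to 1.39 RPKM in hls1, 1.79 in pifq, 1.17 in pifq ein3 eil1 and 9.58 in ein3 eil1, against 0.878 in Col-0. The part of remaining root or seed tissue in the values below was not tested, and fewer cells of a type cannot be told apart from less RNA per cell.

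ADS1 was the one member lower than Col-0 in all 4 mutants. It stood at 14.6 RPKM in hls1, 4.67 in ein3 eil1, 3.73 in pifq ein3 eil1 and 10.13 in pifq, against 49.7 in Col-0. The log2 differences from Col-0 were -1.70, -3.16, -3.42 and -2.19 in the same order, and after scaling they were -2.87 for ein3 eil1 and -3.25 for pifq ein3 eil1. In ein3 eil1 this was the 14th lowest difference of 18581, and the level of Col-0 was 10.6 times that of ein3 eil1. By level, ADS1 was at rank 12323 in ein3 eil1, against rank 2817 in Col-0. Col-0 was thus the high sample; hls1 and pifq lay next to each other, 0.49 apart, as did ein3 eil1 and pifq ein3 eil1, 0.26 apart.

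ADS2, known for a role in chilling tolerance, had the narrowest range of the 5. It stood at 94.9 RPKM in hls1, 53.2 in ein3 eil1, 46.4 in pifq ein3 eil1 and 42.4 in pifq, against 60.9 in Col-0. No genotype differed from Col-0 by the threshold: the log2 differences ran from -0.51 in pifq to 0.63 in hls1, and the highest level was 2.24 times the lowest. In ein3 eil1 the difference of -0.19 became 0.14 after scaling. The ratio of ADS2 to ADS1 was 6.50 in hls1, 11.4 in ein3 eil1, 12.4 in pifq ein3 eil1 and 4.18 in pifq, against 1.23 in Col-0.

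FAD5, the plastid palmitate desaturase, was high in the genotypes without the PIFs. It stood at 63.6 RPKM in hls1, 36.4 in ein3 eil1, 117 in pifq ein3 eil1 and 144 in pifq, against 60.2 in Col-0. On the log2 scale FAD5 differed from Col-0 by 1.24 in pifq, past the threshold, and 0.95 in pifq ein3 eil1, under it, or 1.13 and past it after scaling. In hls1 it differed by 0.08, and in ein3 eil1 by -0.71, or -0.39 after scaling. Its start lies 4 bases from that of PIFI (AT3G15840), which runs the other way on the opposite strand, and PIFI stood at 21.4 RPKM in hls1, 29.04 in ein3 eil1, 22.5 in pifq ein3 eil1 and 32.1 in pifq, against 40.03 in Col-0. PIFI was thus not higher in pifq, with a log2 difference of -0.31.

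FAB2, the main stearoyl-ACP desaturase, was higher than Col-0 in hls1 and pifq. It stood at 150.02 RPKM in hls1, 68.1 in ein3 eil1, 129.96 in pifq ein3 eil1 and 184 in pifq, against 72.9 in Col-0. The log2 differences from Col-0 were 1.03 in hls1, -0.10 in ein3 eil1, 0.83 in pifq ein3 eil1 and 1.32 in pifq. The value in hls1 was just past the threshold and, at 0.98, just under it after scaling, while pifq ein3 eil1 reached 1.01 after scaling. In ein3 eil1 the difference of -0.10 became 0.23 after scaling. The levels formed a high group of hls1, pifq and pifq ein3 eil1, and a low group of ein3 eil1 and Col-0.

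FTM1, named for the floral transition at the meristem, had both the highest level and the widest range. It stood at 187 RPKM in hls1, 68.35 in ein3 eil1, 555 in pifq ein3 eil1 and 1671 in pifq, against 393 in Col-0. The highest level, in pifq, was 24.4 times the lowest, in ein3 eil1, and by RPKM it ranked 53 of 18581 genes in pifq. The log2 differences from Col-0 were -1.07 in hls1, -2.51 in ein3 eil1, 0.49 in pifq ein3 eil1 and 2.08 in pifq. After scaling they were -1.11, -2.18, 0.68 and 2.15 in the same order, on the same side of the threshold in each case. All neighbours in its order of levels were more than 1 apart on the log2 scale except pifq ein3 eil1 and Col-0. FTM1 was 1.25 times FAB2 in hls1, 1.003 times in ein3 eil1, 4.27 times in pifq ein3 eil1 and 9.08 times in pifq, against 5.39 times in Col-0.

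**Figure D1:**
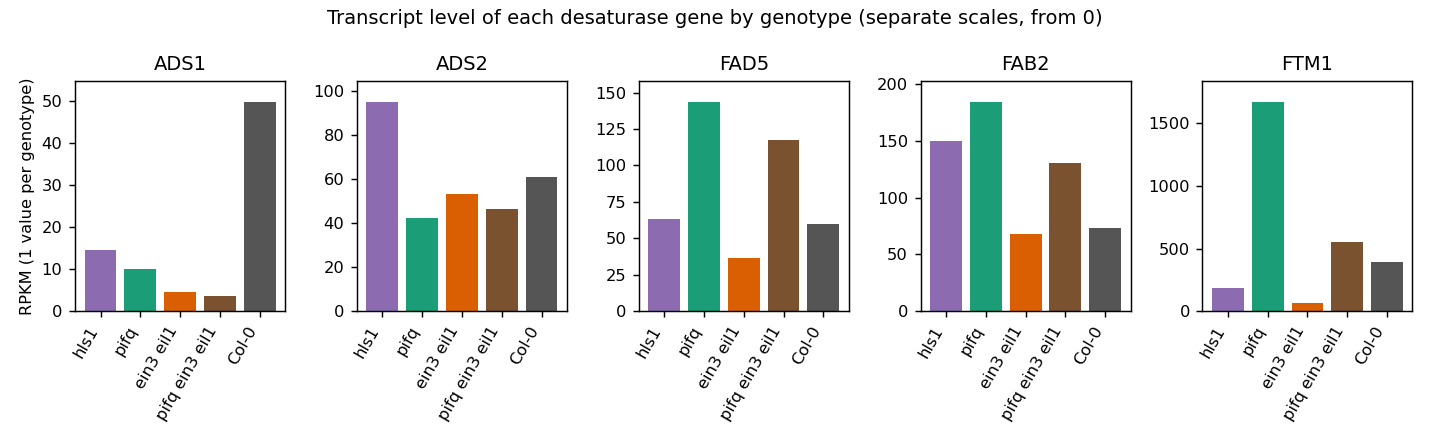
RPKM of ADS1, ADS2, FAD5, FAB2 and FTM1 (vertical axes, each from 0 on its own scale) in the 4 mutants and, at the right, Col-0; each bar is the 1 value per genotype, with no error. ADS1 is highest in Col-0 at 49.7 RPKM, FTM1 is highest in pifq at 1671 RPKM, and ADS2 stays between 42.4 and 94.9 RPKM.

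Against Col-0, the counts were as follows. In hls1, 1 member was higher (FAB2) and 2 were lower (ADS1, FTM1), where 3.4% of all genes compared were higher and 4% lower. In pifq, 3 members were higher (FAD5, FAB2, FTM1) and 1 was lower (ADS1), where 3.39% of all genes were higher and 6.22% lower. In ein3 eil1, no member was higher and 2 were lower (ADS1, FTM1), where 1.63% of all genes were higher and 2.51% lower. In this comparison scaling turned the balance of all genes, to 439 higher and 208 lower, against 303 higher and 467 lower as deposited, and the same 2 members were lower. In pifq ein3 eil1, no member was higher and 1 was lower (ADS1), where 3.81% of all genes were higher and 6.04% lower; scaling gave 908 higher and 852 lower genes, against 708 and 1122 as deposited, and made FAD5 and FAB2 higher. The 4 comparisons share the Col-0 value and the members were chosen on them, so nothing is read from these counts. Just inside the threshold lay FAB2 at 1.03 and FTM1 at -1.07, both in hls1, and just outside it FAD5 at 0.95 and FAB2 at 0.83, both in pifq ein3 eil1.

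**Figure D2:**
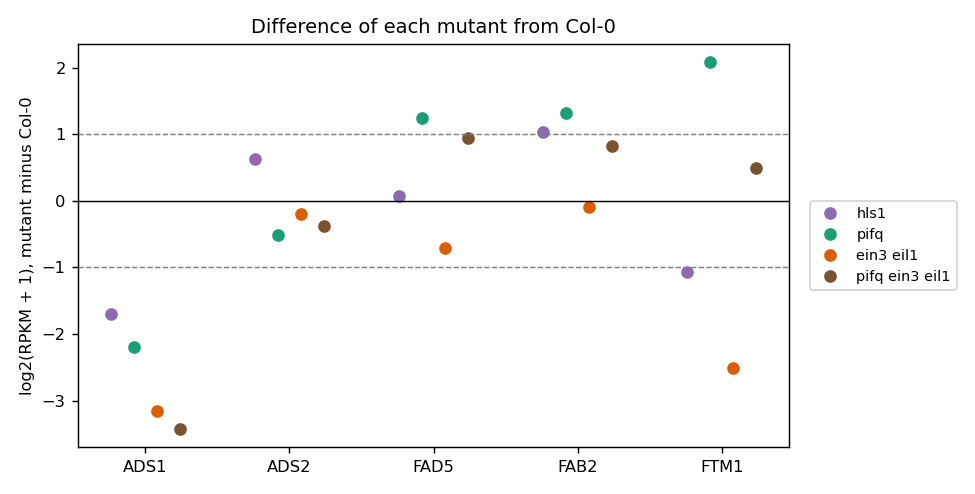
Difference of each mutant from Col-0 on log2(RPKM + 1) (vertical axis) for the 5 genes; each point is 1 mutant and the dashed lines mark a difference of 1 either way. All 4 points of ADS1 lie below -1, those of ADS2 lie between -0.51 and 0.63, and those of FTM1 run from -2.51 in ein3 eil1 to 2.08 in pifq.

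The combined mutant allows loss of EIN3 and EIL1 to be compared without the PIFs, and loss of the PIFs without EIN3 and EIL1. In pifq ein3 eil1 against pifq, FTM1 was at 555 RPKM against 1671, a log2 difference of -1.59, and ADS1 at 3.73 RPKM against 10.13, a difference of -1.23. These 2 members were lower and none was higher, where 1.12% of all genes were lower and 1.76% higher; scaling gave 398 higher and 156 lower genes, against 327 and 209 as deposited. ADS2 (0.13), FAD5 (-0.29) and FAB2 (-0.50) were under the threshold. In pifq ein3 eil1 against ein3 eil1, FTM1 was at 555 RPKM against 68.35, a log2 difference of 3.00 and the 14th highest of 18581. FAD5 was at 117 RPKM against 36.4, a difference of 1.66, and FAB2 at 129.96 RPKM against 68.1, a difference of 0.92. The 2 members past the threshold were higher and none was lower, where 4.04% of all genes were higher and 3.99% lower. Scaling gave 575 higher and 918 lower genes, against 750 and 741 as deposited. FTM1 had been seen to be low in ein3 eil1, the reference here, so nothing is read from this rank or count. ADS1 differed by -0.26 and ADS2 by -0.19. Over all genes the median was -0.11 for pifq ein3 eil1 against pifq and 0.13 for pifq ein3 eil1 against ein3 eil1.

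On the log2 scale, the interaction is the difference of pifq ein3 eil1 from pifq less that of ein3 eil1 from Col-0. A value of 0 means that the 2 sets of mutations added up. Over all genes the median interaction was 0.18, or 0.003 after scaling. ADS1 had an interaction of 1.93, or 1.74 after scaling: loss of EIN3 and EIL1 went with a difference of -1.23 in pifq and of -3.16 in Col-0. It was the 1 member past the threshold, where 3.35% of all genes were higher and 1.5% lower. Scaling gave 410 higher and 360 lower genes, against 622 and 279 as deposited. The interaction contains the difference of ein3 eil1 from Col-0, in which ADS1 and FTM1 had been seen among the lowest genes. Nothing is therefore read from this count. The other interactions were 0.92 for FTM1, 0.42 for FAD5, 0.32 for ADS2 and -0.40 for FAB2, or 0.71, 0.22, 0.11 and -0.61 after scaling. ADS1 has a level of 3.73 RPKM in pifq ein3 eil1, where the pseudocount of 1 makes up a larger part of the value than for the other members; the interaction stayed past the threshold with pseudocounts of 0.1 and 0.5. FTM1 lay between ein3 eil1 and pifq in the combined mutant, whereas ADS1 in the combined mutant was 0.26 below ein3 eil1.

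**Figure D3:**
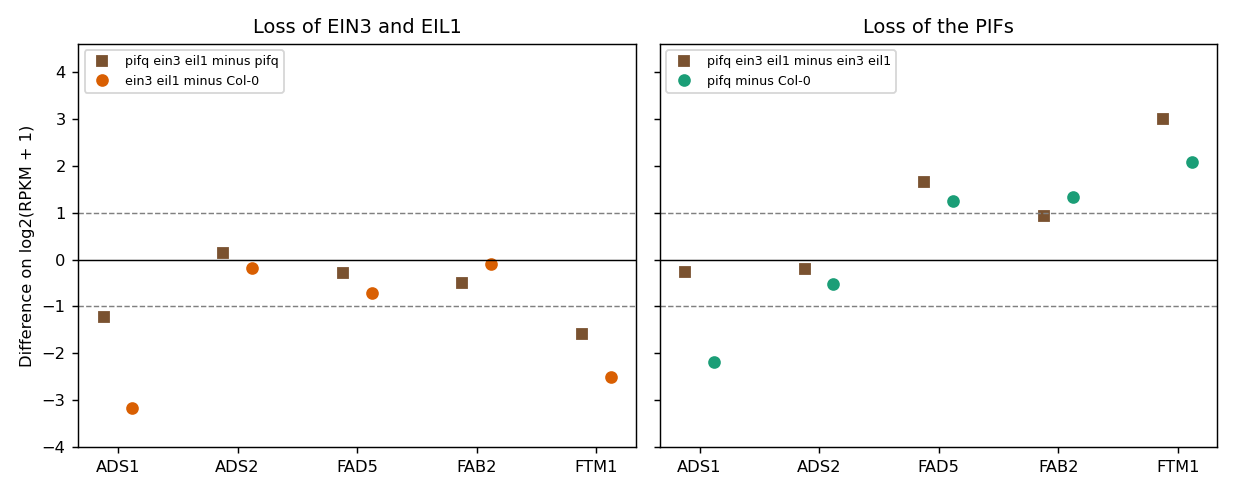
Difference on log2(RPKM + 1) (vertical axes) for loss of EIN3 and EIL1 (left panel) and loss of the PIFs (right panel); squares use pifq ein3 eil1 and circles use a comparison with Col-0, and dashed lines mark a difference of 1. FTM1 is at -1.59 and -2.51 for loss of EIN3 and EIL1 and at 3.00 and 2.08 for loss of the PIFs, whereas ADS1 is at -0.26 and -2.19 for loss of the PIFs.

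The stearoyl-ACP desaturase family has 7 genes in the list used here, 6 of which reached 1 RPKM. FTM1 and FAB2 carried most of its transcript in every genotype. Their family summed to 376 RPKM in hls1, 168 in ein3 eil1, 723 in pifq ein3 eil1 and 1891 in pifq, against 497 in Col-0. FTM1 made up 49.7% of this sum in hls1, 40.8% in ein3 eil1, 76.7% in pifq ein3 eil1 and 88.3% in pifq, against 79.2% in Col-0. Without FTM1, the sum was 189 RPKM in hls1, 99.2 in ein3 eil1, 168 in pifq ein3 eil1 and 221 in pifq, against 103 in Col-0. The third most abundant gene, AT3G02630, was nearly level: it stood at 26.1 RPKM in hls1, 22.3 in ein3 eil1, 24.2 in pifq ein3 eil1 and 26.9 in pifq, against 23.1 in Col-0. AT5G16240 ran from 7.05 RPKM in hls1 down to 3.52 in Col-0, AT3G02620 between 1.46 in hls1 and 4.79 in pifq ein3 eil1, and AT3G02610 stayed under 1 RPKM. AT5G16230 was higher in hls1, at 3.73 RPKM against 0.941 in Col-0, a log2 difference of 1.29. Another annotated gene overlaps it, and since the way reads were counted is not given, reads of the 2 cannot be told apart.

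The ADS family has 9 genes in the list, 6 of which reached 1 RPKM, and its members were low in different mutants. ADS1 was the 1 gene of this family lower in ein3 eil1, where 1 of 6 was lower and none higher, against 2.51% lower and 1.63% higher among all genes; after scaling AT1G06090 was also higher, at 1.105, with 0.87 as deposited. In hls1, 3 of 6 were lower and none higher, against 4% lower and 3.4% higher among all genes. Besides ADS1 these were a pair of neighbouring genes on chromosome 1. AT1G06360, annotated as a fatty acid desaturase family protein, stood at 10.2 RPKM in hls1, 108 in ein3 eil1, 124 in pifq ein3 eil1 and 160.3 in pifq, against 114 in Col-0, a log2 difference of -3.36 in hls1. ADS4 (AT1G06350), its neighbour on the same strand, stood at 20.8 RPKM in hls1, 71.5 in ein3 eil1, 42.3 in pifq ein3 eil1 and 57.5 in pifq, against 61.5 in Col-0, a log2 difference of -1.52 in hls1. In both genes hls1 was the low sample and no other mutant passed the threshold against Col-0. The largest of these other differences was -0.53, for ADS4 in pifq ein3 eil1. AT1G06090, the gene 389 bases after ADS1 on the same strand, stood at 1.80 RPKM in hls1, 3.34 in ein3 eil1, 1.82 in pifq ein3 eil1 and 0.267 in pifq, against 1.38 in Col-0. It was thus below Col-0 in pifq alone, where the ratio of pifq to Col-0 was 0.194, against 0.204 for ADS1, and at these low levels the log2 difference of -0.91 stayed under the threshold. AT1G06100 and AT3G15870 were listed at 0 in every genotype, and AT1G06120 did not exceed 0.0434 RPKM. The ADS genes are alike in sequence, and the sources used here do not say how reads that fit several of them were assigned.

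**Figure D4:**
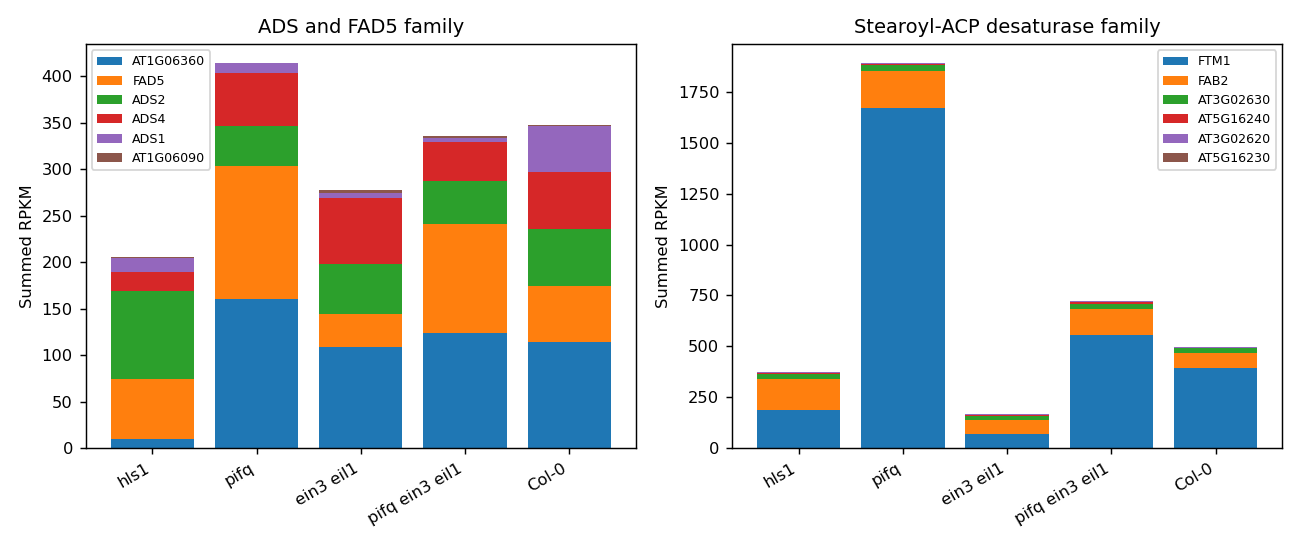
Summed RPKM (vertical axes) of the ADS and FAD5 family (left) and of the stearoyl-ACP desaturase family (right) by genotype; colours mark the genes that reached 1 RPKM. FTM1 makes up 88.3% of the right-hand sum in pifq and 40.8% in ein3 eil1, and AT1G06360 is low in hls1 at 10.2 RPKM.

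ADS1 made up 7.09% of the summed RPKM of the ADS family in hls1, 1.68% in ein3 eil1, 1.11% in pifq ein3 eil1 and 2.45% in pifq, against 14.3% in Col-0. FAD5 made up 30.9% in hls1, 13.1% in ein3 eil1, 34.9% in pifq ein3 eil1 and 34.7% in pifq, against 17.3% in Col-0. ADS2 made up 46.1% in hls1, 19.2% in ein3 eil1, 13.8% in pifq ein3 eil1 and 10.2% in pifq, against 17.5% in Col-0. The family sum was 206 RPKM in hls1, 277 in ein3 eil1, 335 in pifq ein3 eil1 and 414 in pifq, against 348 in Col-0, so the large share of ADS2 in hls1 went with a low sum.

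Listed genes that work before, beside or after the 5 desaturases were counted at the same threshold. Against Col-0, 3.4% of all genes compared were higher and 4% lower in hls1, and 3.39% and 6.22% in pifq. The shares were 1.63% and 2.51% in ein3 eil1, and 3.81% and 6.04% in pifq ein3 eil1. Of 18 plastid fatty acid synthesis genes that reached 1 RPKM, none passed the threshold in hls1 or in ein3 eil1, 1 was higher and 1 lower in pifq, and pifq ein3 eil1 had 1 higher gene. The list median against Col-0 was 0.23 for hls1, 0.21 for pifq, -0.10 for ein3 eil1 and 0.23 for pifq ein3 eil1, where the medians of all genes are those given above. The higher gene was ACP4 (AT4G25050), the main leaf acyl carrier protein, at 880.4 RPKM in pifq and 976 in pifq ein3 eil1, against 349.96 in Col-0, log2 differences of 1.33 and 1.48. FATB (AT1G08510), the thioesterase that releases saturated chains, stood at 58.5 RPKM in pifq against 118 in Col-0, a difference of -1.004 that scaling moved to -0.94, short of the threshold. Of 9 electron donors of desaturases, pifq had 2 higher, and no mutant had a lower one against Col-0, or 1 in hls1 after scaling (FD1, at 664 RPKM against 1291 in Col-0). The higher genes in pifq were FD2 (AT1G60950), the main leaf ferredoxin, which passes electrons to plastid desaturases, at 2713 RPKM in pifq against 1249 in Col-0, and CB5-C (AT2G46650), a cytochrome b5, at 10.9 RPKM in pifq against 4.05 in Col-0. FD2 in pifq ein3 eil1, at 2480.4 RPKM, differed from Col-0 by 0.99, which scaling raised to 1.18 and past the threshold, and CB5-C, at 11.2 RPKM, by 1.28.

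Of 8 other lipid desaturases, 1 was lower in hls1, 1 was lower in pifq and none passed in the other mutants against Col-0. FAD8 (AT5G05580), a plastid linoleate desaturase, stood at 9.11 RPKM in hls1 against 24.6 in Col-0, a log2 difference of -1.34. FAD4 (AT4G27030), which desaturates palmitate on plastid phosphatidylglycerol, stood at 2.08 RPKM in pifq against 6.07 in Col-0, a difference of -1.20. FAD4 was thus low in the mutant in which FAD5, the other palmitate desaturase of the plastid, was high. Of 10 genes of acyl use after synthesis, KCS1 (AT1G01120), which elongates very-long-chain fatty acids, was lower in pifq and in pifq ein3 eil1, at 47.3 and 50.9 RPKM, against 118 in Col-0, and no other passed the threshold against Col-0. The shares of all genes beside these counts are those of the paragraph before. These lists were drawn up with earlier results of the table known, and with 1 value per genotype they are given by their counts alone.

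The members were not alike in pattern. Over the 5 genotype values of log2(RPKM + 1), Pearson's r was 0.94 between FAD5 and FTM1, 0.81 between FAD5 and FAB2 and 0.67 between FTM1 and FAB2, whereas ADS1 had 0.15 with FTM1 and 0.41 with ADS2. For each member the 3 most similar genes were sought among 1782 genes with a symbol that reached 10 RPKM and spanned 1 or more on the log2 scale. ADS1 was most like RTFL8, ELF4-L4 and TT4, with r from 0.975 to 0.981, and TT4, chalcone synthase of flavonoid synthesis, stood at 226 RPKM in hls1, 175 in ein3 eil1, 147 in pifq ein3 eil1 and 181 in pifq, against 312 in Col-0. FTM1 was most like a gene named SYCO ARATH, MRPL11 and ASP2, with r from 0.994 to 0.999, and ASP2, an aspartate aminotransferase, stood at 203 RPKM in hls1, 133 in ein3 eil1, 289 in pifq ein3 eil1 and 421 in pifq, against 233 in Col-0. FAD5 was most like PPOX, a tetrapyrrole synthesis gene, ERF71, a transcription factor of the low-oxygen response, and FAP3, with r from 0.987 to 0.993. FAB2 was most like RL4, DTX1 and iqd21, with r from 0.984 to 0.992, and ADS2 most like MIR414, MSS3 and RCD1, all at 0.997 or 0.998. Each r rests on 5 values that share the same columns, many genes reach such values with so few points, and r says nothing of size: TT4 spanned far less than ADS1.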

How the data were processed

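RNA from 10 seedling samples, 2 of each of 5 genotypes, was sequenced as polyadenylated RNA from directional libraries, per the series' design text. TAIR10 and BWA 0.7.7 appear in the submitters' processing notes. The sources used here do not say how reads were counted, whether by strand and over which lengths. The authors deposited RPKM with 1 value per gene and genotype, per the file headers. Between 48.3% and 48.7% of the values above 0 carry 7 digits, and 95.0% to 95.8% of those end in 5, as a mean of 2 rounded numbers does, so values were taken as means of 2 samples. Precision is unknown.

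From these, log2(RPKM + 1) was compared in Python 3.11.15 with pandas 2.3.3 among genes with 1 RPKM or more in at least 1 column. The planned limma test needs a value per sample and was not run; a threshold of 1 was used. The calculation was checked on simulated data, in which set fold changes without noise were put into the Col-0 values. Such a check says nothing of false calls in the real values. Members and lists were chosen with earlier results of these data known. The genes named were the members, their families' genes that reached 1 RPKM, up to 4 genes past the threshold per list and the 3 genes most like each member; gene neighbours were chosen after seeing the annotation. Positions, names and upstream sequences are from RefSeq, assembly TAIR10.1; all 86 listed identifiers were found there. Alternatives were pseudocounts of 0.1 and 0.5, no filter, a filter of 5 RPKM, median-of-ratios scaling, quantile normalization and a threshold of 2.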

Additional observations from a re-analysis of the deposited data

How the results depend on the processing

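No member difference turned its sign past the threshold under any alternative run. Of 35 member differences, all 35 kept their side of the threshold with pseudocounts of 0.1 and 0.5, without a filter and with a filter of 5 RPKM, and 32 did under median-of-ratios scaling and 34 under quantile normalization. FAD5 in pifq ein3 eil1 against Col-0 reached 1.13 under both, and FAB2 reached 1.01 in pifq ein3 eil1 and 0.98 in hls1 under median-of-ratios scaling. A threshold of 2 kept ADS1 in all mutants but hls1 against Col-0, and FTM1 in pifq and ein3 eil1 against Col-0 and in pifq ein3 eil1 against ein3 eil1. That threshold left 195 genes past it in hls1, 135 in ein3 eil1, 367 in pifq ein3 eil1 and 355 in pifq against Col-0, 75 in pifq ein3 eil1 against pifq, 287 in pifq ein3 eil1 against ein3 eil1 and 156 for the interaction. With a pseudocount of 0.1 the counts were 2200 in hls1, 2688 in pifq and 1504 in ein3 eil1 against Col-0, 1142 in pifq ein3 eil1 against pifq, 2420 in pifq ein3 eil1 against ein3 eil1 and 1724 for the interaction; the corresponding counts as reported were 1376, 1785, 770, 536, 1491 and 901. Low values move most with the pseudocount by its construction. No paired analysis was possible because the deposited columns are 1 value per genotype, and leaving out a replicate was not run for the same reason. Depth per sample is unknown, so the precision of low values such as ADS1 in pifq ein3 eil1 could not be given.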
